A study of Homo sapiens with 12 samples.

Results

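Actin and contractile genes were followed in HK2 cells, an immortalised line from the epithelium of the human proximal tubule, through 12 RNA libraries. The set comprises 35 genes named by symbol, and each symbol matched 1 of the 62703 Ensembl identifiers of the deposited tables. It holds 3 actins, 7 myosin II genes, 10 thin filament regulators, 7 cross-linkers and adhesion links, 2 monomer and turnover proteins, 4 genes of GTPase and ROCK signalling and 2 transcription factors. They were listed by symbol and role, without a threshold on any value, though with earlier results of these data known. The libraries fall into 4 groups of 3. NG cells were kept in 5.5 mM glucose and received a control vector, and HG cells were kept in 50 mM glucose. The si-FGF9 cells received an siRNA against FGF9 (fibroblast growth factor 9) in 5.5 mM glucose, and the HG + OE-FGF9 cells a lentiviral vector that overexpresses FGF9 in 50 mM glucose. The results text of the study describes the NG medium as one with mannitol and the vector as an adenovirus. All cells are of 1 line, no non-targeting siRNA is described for the si-FGF9 comparison, and no vector is described for HG. The siRNA, its transfection and its target therefore cannot be told apart, nor can FGF9 and its vector in HG + OE-FGF9, nor glucose and the control vector between HG and NG. No label says whether the 3 libraries of a group came from separate cultures, so that p-values measure the spread between these libraries, which may be technical.

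Actin filaments are built from actin monomers, bundled by cross-linkers such as α-actinin and filamin, and anchored at focal adhesions by talin, vinculin, zyxin and paxillin. Myosin II pulls on the filaments once its regulatory light chain is phosphorylated, by myosin light chain kinase or by the ROCK kinases, which small GTPases such as RHOA activate, and tropomyosin, caldesmon and calponin set how the filaments meet myosin. When monomeric actin is used up, its partner MRTF enters the nucleus and joins SRF, which binds CArG boxes (CC, 6 bases of A or T, GG) and drives many of these same genes. In kidney tubule epithelium, a rise of α-smooth muscle actin and transgelin is widely used as a sign of epithelial-mesenchymal transition, and the cortical actomyosin ring maintains cell shape and junctions.

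CArG boxes were looked for in the RefSeq promoters of the set (GRCh38.p14), since several members are known SRF targets. A box was present in the 250 bases before an annotated start in 8 of the 32 members with a promoter entry (25%), against 394 of 27305 genes in the table (1.44%). Counted by promoter window, 8 of the 56 windows of these members (14.3%) and 407 of 35116 windows in all (1.16%) held a box. The motif is its own reverse complement, so that both strands were covered. ACTB, TAGLN and MYL9 were not in the promoter table. The lines below give each box with its surroundings, 5′ to 3′ on the strand of the gene, in capitals for the box itself. They are shown because the genes that carry the motif did not move alike between HG and NG.
ACTG1, chr17:81512864-81512913, minus strand: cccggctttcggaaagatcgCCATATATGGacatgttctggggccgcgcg
MYLK, chr3:123620613-123620662, minus strand: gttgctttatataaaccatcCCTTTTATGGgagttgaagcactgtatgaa
CNN2, chr19:1026499-1026548, plus strand: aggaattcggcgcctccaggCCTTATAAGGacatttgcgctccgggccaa
TPM4, chr19:16067345-16067394, plus strand: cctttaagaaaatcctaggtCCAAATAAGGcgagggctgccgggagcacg
ACTN1, chr14:68977708-68977757, minus strand: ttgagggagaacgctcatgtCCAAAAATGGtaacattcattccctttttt
FLNA, chrX:154374699-154374748, minus strand: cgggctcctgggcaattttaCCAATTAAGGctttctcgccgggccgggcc
SRF, chr6:43171219-43171268, plus strand: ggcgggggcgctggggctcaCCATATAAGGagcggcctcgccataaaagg
ROCK2, chr2:11345481-11345530, minus strand: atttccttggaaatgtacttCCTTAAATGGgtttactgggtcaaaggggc
The boxes of ACTG1, MYLK and FLNA all begin 94 bases before their start, that of CNN2 at 89 and that of ROCK2 at 73. That of SRF begins at 30. Those of TPM4 and ACTN1 begin farther out, at 173 and 171. SRF has a further box at the end of its line, which runs from 10 bases before the start to 1. The windows of MYLK, ACTG1, ROCK2, ACTN1 and TPM4 belong to starts inside the gene, that of MYLK near its 3′ end. Those of CNN2, FLNA and SRF lie before the annotated gene. Between HG and NG the log2 fold changes of these 8 genes ran from -1.55 for MYLK, -1.46 for ROCK2 and -1.25 for TPM4, through -0.67 for ACTN1, -0.11 for SRF and -0.03 for CNN2, to 0.22 for FLNA and 0.33 for ACTG1. In si-FGF9 against NG all of them were below 0. MYLK was at -3.27, TPM4 at -2.41, ROCK2 at -2.15 and ACTN1 at -1.64. CNN2 was at -1.27, SRF at -0.89, ACTG1 at -0.56 and FLNA at -0.18, where the median of all genes was -0.79. A match to these letters is a description of the window and says nothing of SRF binding in these cells.

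The values are TPM (transcripts scaled to a common sum and corrected for transcript length, so that levels of different genes can be set side by side), from tables without counts, so that the depth of each library is unknown. Each library had 11549 to 13949 genes at 1 TPM or more. FGF9 was listed at 0 in all libraries of NG, HG and si-FGF9 and at 3.34, 4.03 and 3.82 in HG + OE-FGF9, so that the siRNA could not be checked against its target. Small nuclear and nucleolar RNAs summed to 16535.5, 16630.0 and 5275 TPM in HG + OE-FGF9 and to at most 833 elsewhere. Over the genes with a mean of at least 100 TPM, some pairs of libraries of a group were much closer than the others. The robust SD of their log2 ratio was 0.0679 for NG replicates 2 and 3, 0.111 for si-FGF9 replicates 1 and 2 and 0.0438 for HG + OE-FGF9 replicates 1 and 2, against 0.243 to 0.641 for the remaining pairs. HG replicate 3 and HG + OE-FGF9 replicate 3 stood apart for many members below. Values with and without them are given where they decide a call in HG against NG or HG + OE-FGF9 against HG. For si-FGF9 against HG and HG + OE-FGF9 against NG, only the number of members called is given.

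Few muscle markers outside the set passed 1 TPM, while smooth muscle markers within it were present in every library. TAGLN was at 16.95 to 102.69 TPM, CNN1 at 1.68 to 10.16 and ACTA2 at 1.56 to 5.27. MYH11, DES, LMOD1 and ACTG2, which define smooth muscle, stayed under 1 TPM in every library, and of the 9 smooth muscle markers examined only SMTN, at 16.6 to 28.1 TPM, and SYNM, at 1.28 to 6.07 TPM, passed 1 TPM. The summed level of that list was 23.0 to 23.7 TPM in NG, 19.6 to 32.8 in HG, 20.8 to 29.6 with si-FGF9 and 22.1 to 26.1 with HG + OE-FGF9. TPM2 is a muscle tropomyosin and was not tested, since it reached at most 0.43 TPM. Of the 9 striated muscle markers, TNNI3 (4.35 to 24.8 TPM) and TNNC1 (at most 1.52 TPM) passed 1 TPM. Of the 9 fibroblast markers, COL1A1, DCN and LUM did, and their list summed to 62.5 to 89.3 TPM in NG, 17.2 to 41.1 in HG, 11.6 to 21 with si-FGF9 and 12 to 22.6 with HG + OE-FGF9. Its defining receptors PDGFRA and PDGFRB were at most 0.02 and 0.41 TPM. The part of these genes in the results below was not tested. Endothelial markers summed to at most 0.15 TPM, and of the 5 leukocyte markers only CD14 passed 1 TPM, at up to 3.9. The keratins KRT8, KRT18 and KRT19 were at 211 to 678 TPM, while CDH1, the epithelial cadherin, reached at most 0.28 TPM. Of the 12 proximal tubule markers 7 passed 1 TPM, GGT1, CDH2, CDH6 and PAX8 among them, and the brush border and uptake genes ANPEP, LRP2 and CUBN were at or under 0.26 TPM. That list summed to 439 to 479.9 TPM in NG, 303 to 341 in HG, 318 to 363 with si-FGF9 and 149.9 to 214 with HG + OE-FGF9, and its part in the results below was not tested either.

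The set as a whole made up 1.72 to 1.78% of all TPM in NG, 1.80 to 2.67% in HG, 1.79 to 2.34% with si-FGF9 and 2.08 to 2.25% with HG + OE-FGF9. Without ACTB, the share was 1.41 to 1.44% in NG, 1.39 to 1.91% in HG, 1.37 to 1.70% with si-FGF9 and 1.60 to 1.77% with HG + OE-FGF9, and the NG range lay inside that of HG and of si-FGF9. The levels of single members in NG ran from 0.16 ± 0.0954 TPM (SD, n = 3) for TPM2 to 4194 ± 149 TPM for MYL6.

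**Figure D1:**
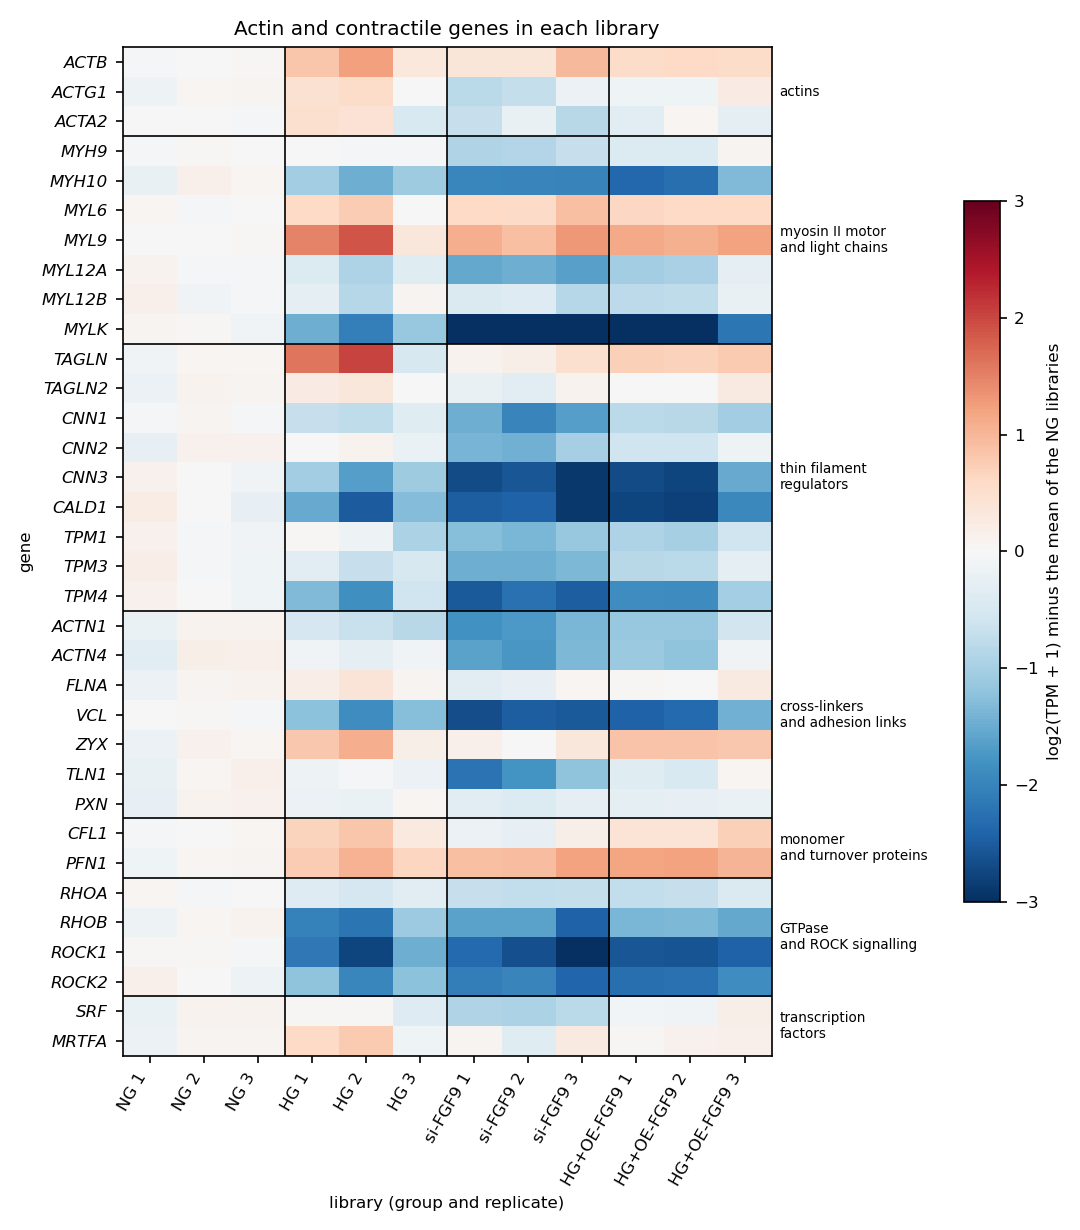
Each row is 1 of the 34 tested genes, grouped by role, and each column 1 library. Colour gives log2(TPM + 1) minus the mean of the 3 NG libraries, blue for lower and red for higher. MYLK, CNN3, CALD1, TPM4, VCL, ROCK1 and ROCK2 are blue in all 9 libraries outside NG, while ACTB, MYL9 and PFN1 are red in all 9.

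Whether 50 mM glucose changed the set was asked by comparing HG with NG. Myosin light chain kinase, non-muscle myosin IIB, caldesmon, calponin 3, tropomyosin 4, vinculin, RhoB and both ROCK kinases fell, while the regulatory light chain MYL9 rose. To be called, a gene needed an absolute log2 fold change of 1 or more together with an unadjusted limma p under 0.01, the criteria of the study. Of the 34 genes tested, 10 were called (29.4%), 9 lower (ROCK1, RHOB, CALD1, MYLK, VCL, ROCK2, CNN3, TPM4 and MYH10) and 1 higher (MYL9). Of all 14639 genes tested 24.4% were called, 22.7% lower and 1.65% higher. The share of the set was thus close to that of all genes, and the count is no result about the set. At a Benjamini-Hochberg adjusted p under 0.05 at any fold, 14 members were lower and 6 higher, 20 in all, against 49% of all genes (40.5% lower and 8.53% higher). The libraries of HG and NG did not overlap for 14 members that were lower and 5 that were higher, where 46.5% and 10.7% of all genes were so placed. The median log2 fold change was -0.15 over the members and -0.39 over all genes, so that a gene at 0 stood above the median gene. Median-of-ratios scaling sets the median of the genes detected in every library, rather than of all genes tested, near 0. It left 10 members called, against 15.7% of all genes, but divided them into 5 lower (MYLK, CALD1, ROCK1, ROCK2 and RHOB) and 5 higher (ACTB, MYL9, ZYX, CFL1 and PFN1). It ended the calls of MYH10 (-0.68), CNN3 (-0.73), TPM4 (-0.73) and VCL (-0.95). In bulk RNA, fewer cells of a kind and less RNA per cell cannot be told apart.

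For si-FGF9 against NG, 19 of the 34 members were called (55.9%), against 47.6% of all genes (42.2% lower and 5.36% higher). Of the 19, 17 were lower and 2 higher (MYL9 and PFN1). The largest falls were those of MYLK, CNN3 and ROCK1. At an adjusted p under 0.05, 23 members were lower and 4 higher, against 69.3% of all genes (57.7% lower and 11.6% higher). Libraries did not overlap for 24 lower and 5 higher members, where 62.1% and 14.3% of all genes were so placed. The median was -1.08 over the members and -0.79 over all genes. With median-of-ratios scaling, 13 members were called, against 36.7% of all genes, 8 lower (MYLK, MYH10, CNN3, CALD1, TPM4, VCL, ROCK1 and ROCK2) and 5 higher (ACTB, MYL6, MYL9, ZYX and PFN1). The 9 calls that ended, all of lower members, had values from -0.88 (RHOB) to -0.22 (TPM1).

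Few members were called between the cells with and without the FGF9 vector in 50 mM glucose. Between HG + OE-FGF9 and HG, 2 of 34 were called (5.88%), against 5.61% of all genes, and both, MYLK and CNN3, were lower. Of all genes 2.67% were lower and 2.94% higher. The same 2 had an adjusted p under 0.05, against 9.53% of all genes (4.71% lower and 4.82% higher). Libraries did not overlap for 3 members, all lower (MYLK, CNN1 and PXN), where 9.95% of all genes were so placed in that direction and 12.2% in the other. With median-of-ratios scaling only MYLK was called, against 5.42% of all genes. The median was -0.26 over the members and -0.13 over all genes. Against NG, HG + OE-FGF9 had 11 members called (32.4%), 9 lower and 2 higher, against 39.7% of all genes (32.7% lower and 7.01% higher). At an adjusted p under 0.05 it had 18 lower and 6 higher, against 64.9% of all genes (48.5% lower and 16.4% higher). Its libraries did not overlap those of NG for 16 lower and 7 higher members, where 53.3% and 21.2% of all genes were so placed. It had 13 members called after median-of-ratios scaling and 10 after the correction for GC content, against 34.7% and 23.1% of all genes.

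The si-FGF9 and HG groups share the NG libraries as their control, and the difference between them was tested directly. In si-FGF9 against HG, 8 members were called (23.5%), all lower, against 11.1% of all genes (9.67% lower and 1.4% higher), and they were MYLK, TLN1, CNN3, ACTN4, CNN2, TPM4, CNN1 and VCL. At an adjusted p under 0.05, 20 members were lower and 0 higher, where 28.1% of all genes were lower and 4.75% higher, 32.9% in all. Libraries did not overlap for 21 lower and 0 higher members, where 35% and 7.1% of all genes were so placed. With median-of-ratios scaling 2 of the 8 were called, MYLK and TLN1, against 8.01% of all genes. With a correction for GC content, 4 were called (MYLK, CNN3, ACTN4 and TLN1), against 5.86%.

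**Figure D2:**
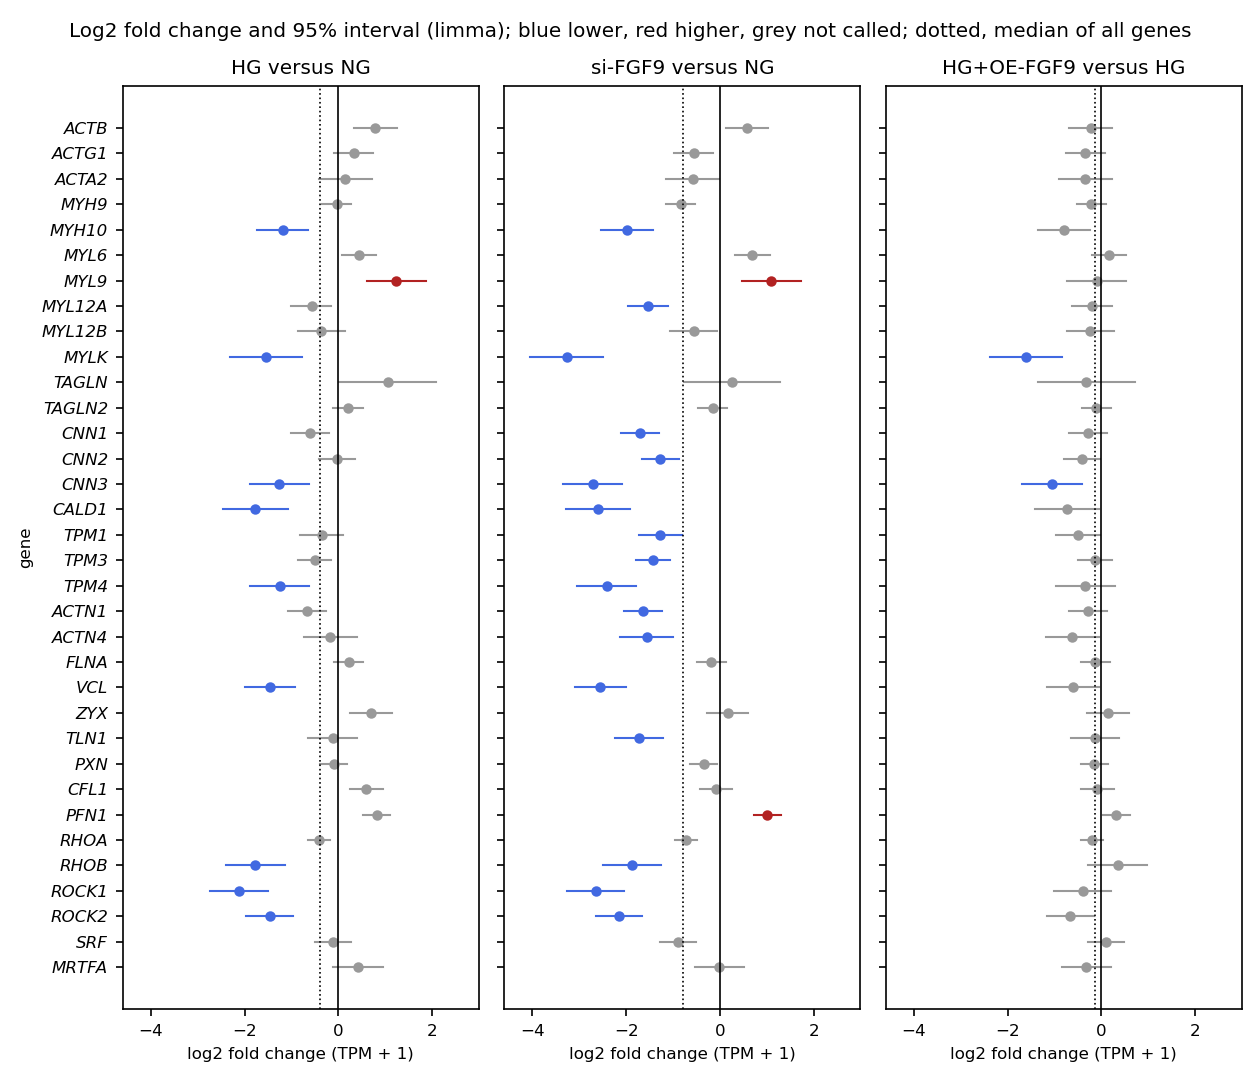
Points give the log2 fold change of each of the 34 genes on the log2(TPM + 1) scale and lines its 95% interval from limma, in 3 panels for the 3 comparisons of the study. Blue genes were called lower and red genes higher, and the dotted line is the median of all genes tested. Blue points are 9, 17 and 2 in the 3 panels and red points 1, 2 and 0.

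Actins. ACTB and ACTG1 encode the cytoplasmic β- and γ-actin of every cell, and ACTA2 encodes α-smooth muscle actin. ACTB (chr7:5527147-5563784, GRCh38) had TPM of 3128, 3285 and 3349.5 in NG, 5787, 7603 and 4080.3 in HG, 4216, 4213 and 6430.2 with si-FGF9 and 4760.0, 4892 and 4780.0 with HG + OE-FGF9. All libraries of the other groups lay above the highest NG value, and within HG replicate 3 was the lowest and replicate 2 the highest. The log2 fold change was 0.79 ± 0.21 (SE) in HG (adjusted p = 0.00826) and 0.58 ± 0.21 in si-FGF9 (adjusted p = 0.0255), below the fold needed for a call in both. Without HG replicate 3 that in HG was 1.03 and was called. ACTG1 had TPM of 1872, 2189.5 and 2219 in NG, 2868, 3051 and 2064 in HG, 1200.0, 1274 and 1855 with si-FGF9 and 1901, 1914 and 2467 with HG + OE-FGF9. Its HG libraries overlapped those of NG (0.33 ± 0.19, adjusted p = 0.176), and its si-FGF9 libraries were all lower than NG (-0.56 ± 0.19, adjusted p = 0.0205), a direction that turned under median-of-ratios scaling (0.49).

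Set against each other within a library, these cytoplasmic actins parted, and the ratio does not depend on how a library is scaled. ACTB stood to ACTG1 as 1.67, 1.5 and 1.51 in NG, 2.02, 2.49 and 1.98 in HG, 3.51, 3.31 and 3.47 with si-FGF9 and 2.5, 2.56 and 1.94 with HG + OE-FGF9. The si-FGF9 ratios were the highest of all 12 libraries, at 3.43 ± 0.106 (SD, n = 3) against 1.56 ± 0.0954 in NG and 2.16 ± 0.284 in HG. An exact two-sided permutation test of 3 libraries against 3 gave p = 0.1 for each of these separations, the smallest it can give. The longest transcripts of the pair have a similar GC content, 55.1% for ACTB and 57.8% for ACTG1.

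ACTA2 was scarce. Its TPM were 3.54, 3.6 and 3.45 in NG, 5.27, 5.15 and 2.3 in HG, 1.81, 2.86 and 1.56 with si-FGF9 and 2.58, 3.73 and 2.7 with HG + OE-FGF9. HG replicates 1 and 2 were above all NG libraries and replicate 3 below them, which gave 0.15 ± 0.26 (adjusted p = 0.662, 95% interval -0.42 to 0.72). In si-FGF9 all 3 values were lower than in NG, with -0.58 ± 0.26 and an adjusted p of 0.0641, which became 0.18 under median-of-ratios scaling and -0.03 after the correction for GC content. HG + OE-FGF9 overlapped HG (-0.34 ± 0.26, adjusted p = 0.402).

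**Figure D3:**
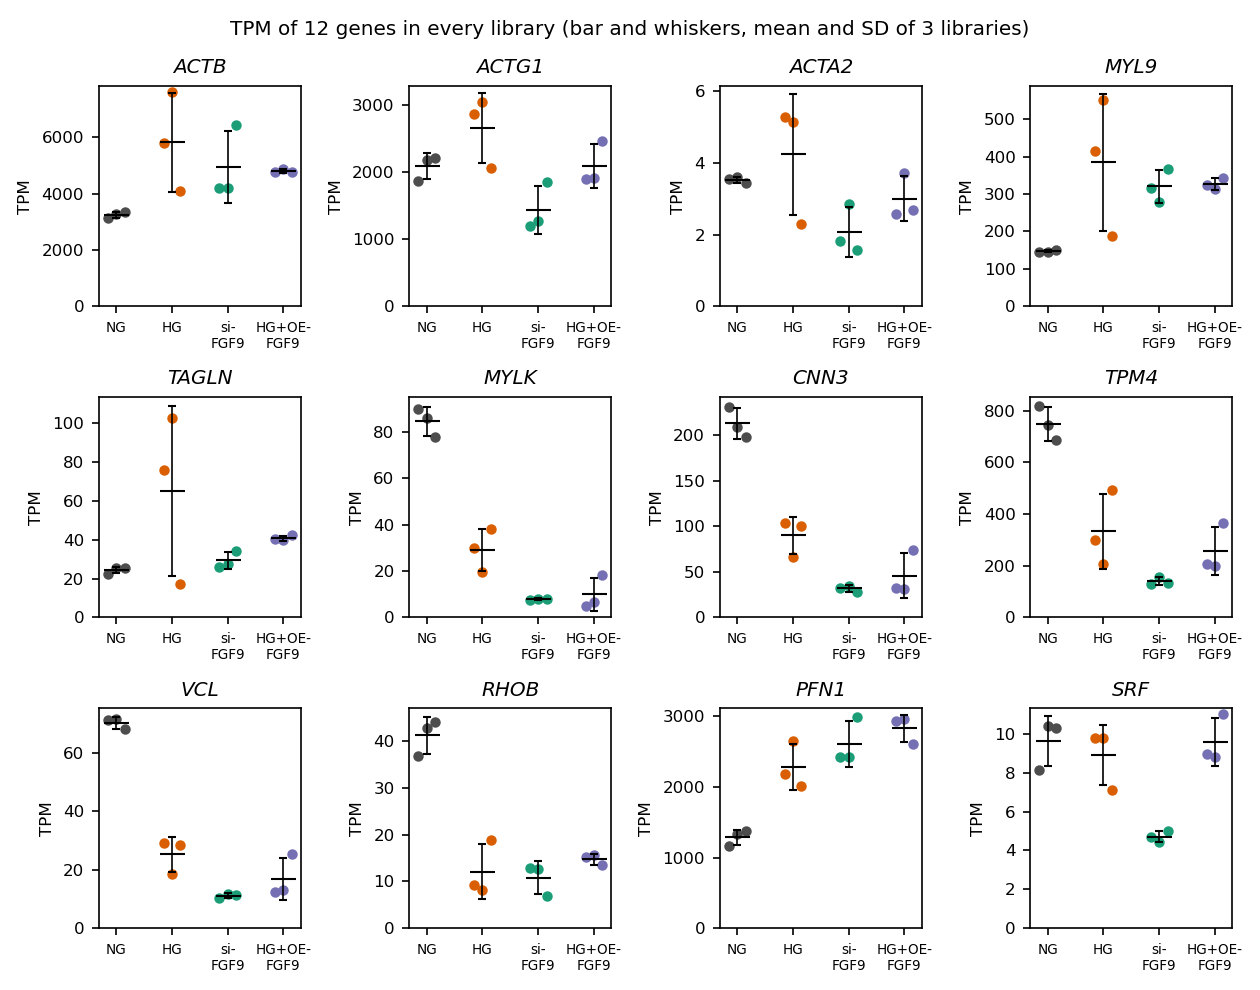
TPM of 12 of the genes, 1 panel a gene and 1 point a library, with a bar for the mean and whiskers for the SD of 3 libraries. In the panels of ACTB, MYL9 and TAGLN the HG libraries are far apart, with replicate 3 the lowest, and in those of MYLK, CNN3, TPM4 and VCL the si-FGF9 libraries sit close together below HG.

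Myosin II and its light chains. MYH9 and MYH10 encode the heavy chains of non-muscle myosin IIA and IIB, MYL6 the essential light chain, MYL9, MYL12A and MYL12B the regulatory light chains, and MYLK the kinase that phosphorylates the latter. MYLK had TPM of 89.6, 86.1 and 77.7 in NG, 30.0, 19.7 and 37.9 in HG, 7.47, 8.02 and 8.02 with si-FGF9 and 5.06, 6.54 and 18.1 with HG + OE-FGF9. Each of the other groups lay wholly below NG, si-FGF9 lay wholly below HG, and HG + OE-FGF9 lay wholly below HG by a narrow gap between its replicate 3 and HG replicate 2. MYLK fell in HG (-1.55 ± 0.36, adjusted p = 0.0044), in si-FGF9 (-3.27 ± 0.36, adjusted p = 1.42e-05) and in HG + OE-FGF9 against HG (-1.61 ± 0.36, adjusted p = 0.0164). It was the member with the largest change with si-FGF9 and with HG + OE-FGF9, and these calls held under median-of-ratios scaling and after the correction for GC content. With transcript length corrected as well, the value in HG was -0.85 and was not called.

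MYL9 moved the other way. MYL9 TPM were 146, 146 and 152 in NG, 415, 550.4 and 189 in HG, 316, 279 and 368 with si-FGF9 and 325, 313 and 344 with HG + OE-FGF9. All 9 libraries outside NG were higher than NG, and HG replicate 3 was the lowest of them. The rise was 1.24 ± 0.29 in HG (adjusted p = 0.00483) and 1.10 ± 0.29 in si-FGF9 (adjusted p = 0.00473). It was 0.92 and not called in HG without HG replicate 2, and at the edge of the fold criterion, 1.00 and not called, in si-FGF9 without si-FGF9 replicate 3. HG + OE-FGF9 overlapped HG (-0.10 ± 0.29, 95% interval -0.74 to 0.53).

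The more abundant regulatory light chains did not follow MYL9. MYL12A averaged 705 ± 45.5 TPM in NG, 480.0 ± 95.7 in HG, 242 ± 14.4 with si-FGF9 and 425 ± 126 with HG + OE-FGF9 (SD, n = 3), and it fell in si-FGF9 (-1.54 ± 0.20, adjusted p = 3.24e-05). That call ended under median-of-ratios scaling (-0.49) and after the correction for GC content (-0.49). MYL12B averaged 390.5 ± 35.2 in NG and 268 ± 46.8 in si-FGF9 (-0.56 ± 0.23, adjusted p = 0.05), which turned to 0.49 under median-of-ratios scaling and 0.12 after the correction for GC content. The 2 genes share 171 stretches of 31 bases, 14.3% and 14.0% of each, so that the division of reads between them is uncertain. The ratio of MYL9 to their sum was 0.123, 0.14 and 0.144 in NG, 0.491, 0.943 and 0.198 in HG, 0.592, 0.502 and 0.833 with si-FGF9 and 0.57, 0.532 and 0.381 with HG + OE-FGF9. Every library outside NG exceeded every NG library (exact permutation p = 0.1 for each group against NG). MYL6, the most abundant member, averaged 4194 ± 149 TPM in NG, 5858 ± 1524 in HG and 6814 ± 858 in si-FGF9, with 0.69 ± 0.17 in the last (adjusted p = 0.00279).

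Of the heavy chains, MYH10 fell in both comparisons with NG and MYH9 was called in neither. MYH10 averaged 24.9 ± 3.36 TPM in NG, 10.4 ± 1.81 in HG, 5.5 ± 0.107 with si-FGF9 and 5.85 ± 2.9 with HG + OE-FGF9. Its log2 fold change was -1.19 ± 0.25 in HG (adjusted p = 0.00313) and -1.98 ± 0.25 in si-FGF9 (adjusted p = 3.27e-05). MYH9 overlapped between HG and NG (-0.03 ± 0.14, 95% interval -0.34 to 0.28) and lower in si-FGF9 (-0.83 ± 0.14, adjusted p = 0.000234), the latter with its direction turned to 0.22 under median-of-ratios scaling. Myosin IIA outnumbered IIB by 10.5, 8.62 and 9.11 in NG, 20.1, 27.2 and 19.5 in HG, 22, 22.5 and 26.5 with si-FGF9 and 43.3, 39.6 and 26.6 with HG + OE-FGF9. Their GC contents differ, at 58.6% and 49.0%. Without HG + OE-FGF9 replicate 3, MYH10 was also called lower in HG + OE-FGF9 against HG, at -1.12.

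**Figure D4:**
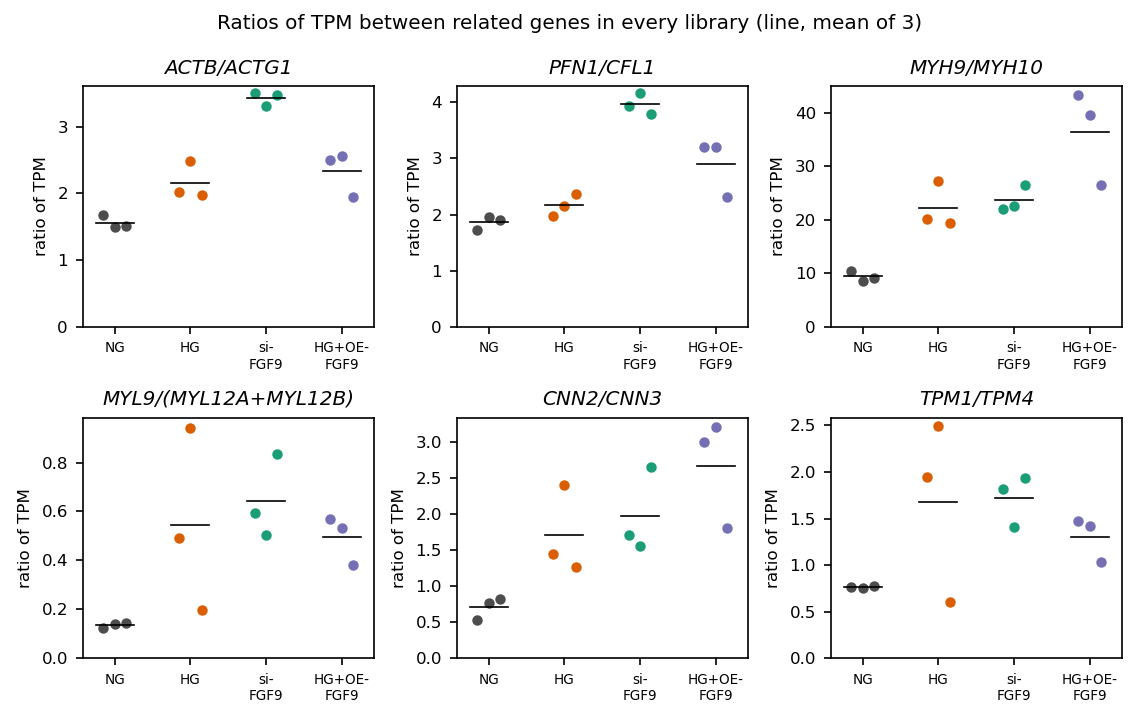
Ratios of TPM between related genes, 1 panel a pair and 1 point a library, with a line at the mean of 3. For ACTB/ACTG1 and PFN1/CFL1 the 3 si-FGF9 libraries lie above all others, and for MYH9/MYH10, CNN2/CNN3 and MYL9/(MYL12A+MYL12B) all libraries outside NG lie above NG.

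Thin filament regulators. Transgelin (TAGLN), an actin-bundling protein and a smooth muscle marker, had TPM of 22.4, 25.2 and 25.3 in NG, 75.7, 103 and 16.9 in HG, 26.2, 27.5 and 34.4 with si-FGF9 and 40.5, 39.7 and 42.2 with HG + OE-FGF9. HG replicates 1 and 2 stood far above NG and replicate 3 below it, and the HG + OE-FGF9 libraries lay close together above NG. The difference of HG from NG was 1.05 ± 0.47 (adjusted p = 0.0841) and was not called, whereas without HG replicate 3 it was 1.82 and was called. That library also decided the comparison with HG + OE-FGF9, which was -0.32 ± 0.47 (adjusted p = 0.674) with it and -1.09, called lower, without it. In si-FGF9 TAGLN was 0.26 ± 0.47 (adjusted p = 0.645). TAGLN2, its relative outside muscle, averaged 591 ± 59.5 TPM in NG and differed in none of the 3 comparisons of the study at an adjusted p under 0.05, the lowest being 0.261.

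Of the calponins, CNN1 marks smooth muscle and CNN2 and CNN3 are found in many cells. CNN1 had TPM of 9.29, 10.2 and 9.2 in NG, 5.51, 5.21 and 7.21 in HG, 2.83, 1.68 and 2.34 with si-FGF9 and 5.01, 4.89 and 4.1 with HG + OE-FGF9. Every library outside NG was lower than NG, si-FGF9 was lower than HG, and HG + OE-FGF9 was lower than HG. CNN1 fell in si-FGF9 (-1.70 ± 0.19, adjusted p = 1.51e-05) and was lower without reaching the fold criterion in HG (-0.61 ± 0.19, adjusted p = 0.0184). Under median-of-ratios scaling its si-FGF9 value was -0.84 and was not called. CNN3 had TPM of 232, 209.6 and 198 in NG, 103, 66.5 and 101 in HG, 32.4, 34.9 and 27.9 with si-FGF9 and 32.5, 30.6 and 74.4 with HG + OE-FGF9. It fell in HG (-1.26 ± 0.29, adjusted p = 0.00445) and in si-FGF9 (-2.71 ± 0.29, adjusted p = 1.31e-05), each time with no overlap. Its fall in HG + OE-FGF9 against HG (-1.05 ± 0.29, adjusted p = 0.041) was carried by replicates 1 and 2, while replicate 3 lay above HG replicate 2. That call was lost on leaving out HG replicate 1 (-0.94), HG replicate 3 (-0.96), HG + OE-FGF9 replicate 1 (-0.87) or HG + OE-FGF9 replicate 2 (-0.83).

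CNN2 overlapped between HG and NG (-0.03 ± 0.18, 95% interval -0.42 to 0.36) and fell in si-FGF9 (-1.27 ± 0.18, adjusted p = 6.19e-05), from 149 ± 21.9 to 61 ± 11 TPM. That call ended under median-of-ratios scaling (-0.23) and after the correction for GC content (-0.98). A locus of unsettled type on the opposite strand, ENSG00000279753 (chr19:1038727-1039064), shares 308 stretches of 31 bases with CNN2. That locus rose from 68.6, 98.2 and 100.2 TPM in NG to 429.7, 449 and 599 in si-FGF9, and also to 327, 525 and 202 in HG, where CNN2 overlapped NG. The sources used here do not say whether reads were counted by strand, so that the 2 cannot be told apart with certainty.

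Caldesmon (CALD1), which holds myosin off the filament, had TPM of 78.7, 68.5 and 57.1 in NG, 23.2, 11.1 and 26.9 in HG, 11.3, 11.7 and 8.23 with si-FGF9 and 9.14, 8.82 and 16.8 with HG + OE-FGF9. NG libraries were all above the rest, and HG replicate 2 and si-FGF9 replicate 3 were the lowest of their groups. CALD1 fell in HG (-1.77 ± 0.32, adjusted p = 0.00152) and in si-FGF9 (-2.60 ± 0.32, adjusted p = 2.51e-05). Against HG, HG + OE-FGF9 was -0.73 ± 0.32 (adjusted p = 0.155), and it was called lower without HG replicate 2 (-1.10) or without HG + OE-FGF9 replicate 3 (-1.01).

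Tropomyosins wind along the filament. TPM1 had TPM of 629.9, 564 and 532 in NG, 585, 517 and 299 in HG, 234, 221 and 259 with si-FGF9 and 301, 286 and 378 with HG + OE-FGF9. HG replicate 3 lay well under the other HG libraries, which overlapped NG, and all si-FGF9 libraries were lower than all others. TPM1 was -0.35 ± 0.21 in HG (adjusted p = 0.192) and fell in si-FGF9 (-1.27 ± 0.21, adjusted p = 0.00022). That call ended under median-of-ratios scaling (-0.22) and with GC content corrected (-0.33). TPM4 fell in both, from 749 ± 66.9 TPM in NG to 333 ± 145 in HG (-1.25 ± 0.29, adjusted p = 0.0044) and 140.0 ± 15.1 in si-FGF9 (-2.41 ± 0.29, adjusted p = 2.27e-05). Without HG replicate 2 its value in HG was -0.96 and was not called. TPM3 fell in si-FGF9 (-1.43 ± 0.16, adjusted p = 1.82e-05) and was -0.50 ± 0.16 in HG (adjusted p = 0.0228), the latter at 0.02 after median-of-ratios scaling. The si-FGF9 call ended under that scaling (-0.38) and with GC content corrected (-0.35). The antisense gene TPM1-AS, which shares 42.3% of the stretches of TPM1, stayed at 1.73 to 6.41 TPM.

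Cross-linkers and adhesion links. VCL encodes vinculin, which couples talin to actin at adhesions. VCL had TPM of 71.2, 71.7 and 68.1 in NG, 29.2, 18.5 and 28.4 in HG, 10.3, 11.8 and 11.3 with si-FGF9 and 12.3, 13.2 and 25.3 with HG + OE-FGF9. NG was wholly above the other groups and si-FGF9 wholly below HG, while HG + OE-FGF9 replicate 3 lay within HG. VCL fell in HG (-1.46 ± 0.25, adjusted p = 0.00131) and with si-FGF9 (-2.55 ± 0.25, adjusted p = 8.98e-06), and si-FGF9 was lower than HG (-1.09 ± 0.25, adjusted p = 0.0088).

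FLNA, the filament cross-linker filamin A, passed the test in neither comparison with NG. Its TPM were 594, 715 and 725 in NG, 779, 878 and 711 in HG, 536, 568 and 699 with si-FGF9 and 687, 665 and 812 with HG + OE-FGF9. HG overlapped NG (0.22 ± 0.14, adjusted p = 0.219), and so did si-FGF9 (-0.18 ± 0.14, 95% interval -0.48 to 0.13). Zyxin (ZYX), which gathers at strained adhesions, averaged 55.2 ± 6.21 TPM in NG and 92.7 ± 28.4 in HG, where it was higher below the fold criterion (0.69 ± 0.20, adjusted p = 0.0147). In si-FGF9 it was 0.17 ± 0.20 (adjusted p = 0.478).

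The remaining links parted between the treatments. Talin (TLN1), which ties integrins to actin, averaged 42.2 ± 5.55 TPM in NG and 38.5 ± 1.91 in HG (-0.12 ± 0.23, adjusted p = 0.696) but 12.5 ± 4.81 in si-FGF9 (-1.73 ± 0.23, adjusted p = 4.83e-05). The direct comparison of si-FGF9 with HG gave -1.61 ± 0.23 (adjusted p = 0.00186), and it was called also under median-of-ratios scaling (-1.12) and after the correction for GC content (-1.38). The α-actinin ACTN4 was at -0.17 ± 0.26 in HG (adjusted p = 0.611) and fell in si-FGF9 (-1.56 ± 0.26, adjusted p = 0.000191). Under median-of-ratios scaling it was not called against NG (-0.52) or against HG (-0.87), and TLN1 was not called against NG (-0.73). ACTN4 shares 783 stretches of 31 bases with CAPN12, which overlaps its 3′ end on the opposite strand and was at 111, 112 and 129 TPM in si-FGF9 against 0.35, 0.16 and 0 in NG. The part of that overlap in the value of ACTN4 was not tested. ACTN1, the other non-muscle α-actinin, fell in si-FGF9 (-1.64 ± 0.19, adjusted p = 1.84e-05) and was lower below the fold criterion in HG (-0.67 ± 0.19, adjusted p = 0.0119). Its si-FGF9 call ended under median-of-ratios scaling (-0.60) and after the correction for GC content (-0.99). Paxillin (PXN) averaged 99.5 ± 14.4 TPM in NG and 77.8 ± 4.06 in si-FGF9 (-0.34 ± 0.14, adjusted p = 0.0389, turned to 0.70 under median-of-ratios scaling), with 15.1% of its stretches shared with the antisense gene PXN-AS1, at 3.13 to 56.3 TPM.

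Monomer and turnover proteins. Profilin (PFN1) feeds monomers to growing ends, and cofilin (CFL1) severs old filaments. PFN1 had TPM of 1166, 1329 and 1371 in NG, 2182, 2649 and 2017 in HG, 2418, 2425 and 2992 with si-FGF9 and 2932, 2957 and 2614 with HG + OE-FGF9. Every library outside NG exceeded every NG library. PFN1 rose in si-FGF9 (1.01 ± 0.13, adjusted p = 3.59e-05), just past the fold criterion, and was higher below it in HG (0.82 ± 0.13, adjusted p = 0.00107). Leaving out NG replicate 1 (0.94) or si-FGF9 replicate 3 (0.91) took the si-FGF9 value under the criterion.

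CFL1 was higher in HG, again below the fold criterion, and not in si-FGF9. It averaged 692 ± 23.8 TPM in NG, 1062 ± 193 in HG (0.60 ± 0.16, adjusted p = 0.00876) and 661 ± 111 in si-FGF9 (-0.08 ± 0.16, adjusted p = 0.671). The ratio of PFN1 to CFL1 was 1.73, 1.95 and 1.9 in NG, 1.98, 2.15 and 2.37 in HG, 3.94, 4.17 and 3.8 with si-FGF9 and 3.2, 3.2 and 2.31 with HG + OE-FGF9. As for the actin pair, the si-FGF9 ratios were the highest of all libraries (3.97 ± 0.187 against 1.86 ± 0.115 in NG, exact permutation p = 0.1), and the GC contents are alike (58.5% and 57.7%). Of 8 such ratios between related genes, 6 did not overlap between HG and NG and 7 between si-FGF9 and NG. Between HG + OE-FGF9 and HG the number was 0. Of single genes, 46.5% lower and 10.7% higher did not overlap between HG and NG. The shares were 62.1% and 14.3% for si-FGF9 and NG, and 9.95% and 12.2% for HG + OE-FGF9 and HG. No share was taken over other pairs of genes, so that these counts are no result about the set.

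GTPase and ROCK signalling. RHOA and RHOB are small GTPases that turn on ROCK1 and ROCK2, the kinases behind stress fibres. All 4 genes were lower than NG in every library of the other groups. RHOA had TPM of 446, 416 and 425 in NG, 325, 304 and 336 in HG, 263, 257 and 262 with si-FGF9 and 257, 265 and 316 with HG + OE-FGF9. Its difference was -0.42 ± 0.11 in HG (adjusted p = 0.00847) and -0.72 ± 0.11 in si-FGF9 (adjusted p = 0.000104), below the fold criterion, and turned to 0.11 and 0.33 under median-of-ratios scaling.

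RHOB had TPM of 36.7, 42.8 and 44.1 in NG, 9.3, 8.22 and 18.8 in HG, 12.9, 12.7 and 6.86 with si-FGF9 and 15.2, 15.6 and 13.4 with HG + OE-FGF9. The separation from NG was wide, and HG replicate 3 was the highest library outside NG. RHOB fell in HG (-1.77 ± 0.29, adjusted p = 0.00111) and in si-FGF9 (-1.88 ± 0.29, adjusted p = 0.00011). It is GC-rich (57.3%), and once GC content was corrected for it was still called lower, at -1.79 in HG and -1.67 in si-FGF9. Under median-of-ratios scaling the HG call held (-1.26) and the si-FGF9 call did not (-0.88).

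ROCK1 had TPM of 11, 10.9 and 10.1 in NG, 1.64, 0.74 and 3.2 in HG, 1.31, 0.87 and 0.48 with si-FGF9 and 0.98, 0.95 and 1.17 with HG + OE-FGF9, and ROCK2 of 7.48, 6.66 and 5.85 in NG, 2.32, 0.98 and 2.25 in HG, 0.800, 0.92 and 0.46 with si-FGF9 and 0.59, 0.63 and 1.11 with HG + OE-FGF9. Both kinases were near 1 TPM outside NG, where the log2(TPM + 1) scale understates a change. ROCK1 fell in HG (-2.12 ± 0.28, adjusted p = 0.000612), the largest change of the set there, and in si-FGF9 (-2.65 ± 0.28, adjusted p = 1.26e-05). ROCK2 fell in HG (-1.46 ± 0.23, adjusted p = 0.00101) and in si-FGF9 (-2.15 ± 0.23, adjusted p = 1.31e-05). With GC content corrected it was at -0.42 and -0.58 and was called in neither, while ROCK1 was called in both (-1.11 and -1.11). With transcript length corrected as well, ROCK1 was at -0.93 in HG and -0.95 in si-FGF9 and was called in neither. The transcripts of ROCK1 and ROCK2 have the lowest GC contents of the set, 40.5% and 39.9%.

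Transcription factors. SRF had TPM of 8.13, 10.4 and 10.3 in NG, 9.77, 9.78 and 7.12 in HG, 4.67, 4.45 and 4.99 with si-FGF9 and 8.97, 8.79 and 11 with HG + OE-FGF9. The si-FGF9 libraries were the lowest of all, while HG and HG + OE-FGF9 overlapped NG. SRF was lower in si-FGF9 below the fold criterion (-0.89 ± 0.18, adjusted p = 0.000729, and 0.02 after median-of-ratios scaling) and -0.11 ± 0.18 in HG (adjusted p = 0.65). MRTFA had TPM of 5.83, 7.08 and 7.17 in NG, 10.7, 12.1 and 6.06 in HG, 7.12, 4.92 and 8.2 with si-FGF9 and 6.8, 7.39 and 7.52 with HG + OE-FGF9. HG replicates 1 and 2 were the highest and replicate 3 lay within NG, which gave 0.42 ± 0.24 in HG (adjusted p = 0.171). In si-FGF9 it was -0.01 ± 0.24 (95% interval -0.54 to 0.52).

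The direction of a member went with the GC content of its longest transcript. Of the 34 members, 14 had a GC content under 50% and 20 at least 50%. Between HG and NG the members under 50% had a median log2 fold change of -1.22, with 8 called lower and 0 higher, and the others one of 0.21, with 1 lower and 1 higher. In si-FGF9 against NG the medians were -2.07, with 12 lower, and -0.26, with 5 lower and 2 higher. In HG + OE-FGF9 against HG they were -0.45, with 2 lower, and -0.14, with 0. Over all genes binned by GC content, the median in HG against NG was -1.22 in the lowest bin and 0.3 in the highest. It was -1.79 and 0.2 in si-FGF9 against NG, and -0.36 and 0.05 in HG + OE-FGF9 against HG. No share called was taken over all genes of each GC class, so that these counts are no result about the set. Spearman's rank correlation of fold change with GC content was 0.67, 0.60 and 0.53 over the 34 members, and 0.64, 0.57 and 0.29 over the 14191 genes with a GC value. These are correlations across genes measured in the same libraries, which are not independent replicates, and the members follow the trend of all genes in HG and si-FGF9.

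After a correction that removed this trend from each library, 4 members were called between HG and NG (3 lower and 1 higher), against 6.84% of all genes. They were RHOB, MYLK and ROCK1, lower, and MYL9, higher. The calls that ended were those of MYH10 (-0.82), CNN3 (-0.69), CALD1 (-0.84), TPM4 (-0.86), VCL (-0.84) and ROCK2. Between si-FGF9 and NG 14 were called, 11 lower (MYLK, MYH10, CNN1, CNN3, CALD1, TPM4, ACTN4, VCL, TLN1, ROCK1 and RHOB) and 3 higher (MYL9, PFN1 and MYL6), against 24.3% of all genes. The calls that ended were those of MYL12A (-0.49), CNN2 (-0.98), ACTN1 (-0.99), TPM1, TPM3 and ROCK2. Between HG + OE-FGF9 and HG only MYLK was called, at -1.60, against 5.21% of all genes. What made fold change follow GC content was not tested.

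**Figure D5:**
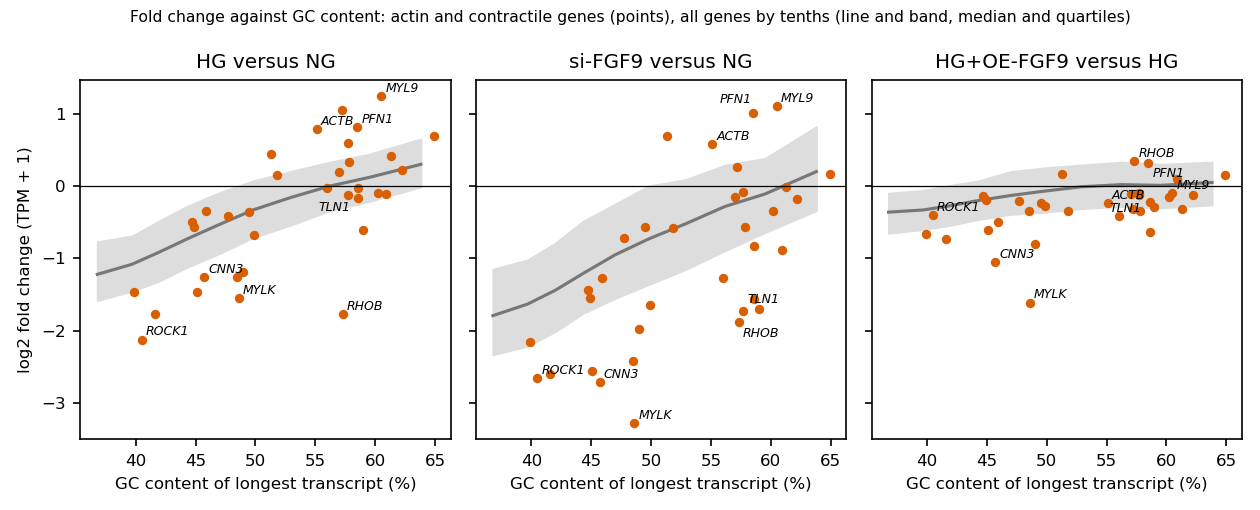
Log2 fold change (log2(TPM + 1) scale) against the GC content of the longest transcript for the 34 genes, in 3 panels for the 3 comparisons, over the median (line) and quartiles (band) of all genes in bins of GC content. In HG versus NG the points climb with the line from ROCK1 at the lower left to MYL9 at the upper right, and RHOB lies far below it.

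The wider actin machinery was read from 6 lists with 101 genes beside the set, of which 99 were tested. Between HG and NG 41 were called (41.4%), all lower, between si-FGF9 and NG 60 lower and 4 higher (64.6%), and between HG + OE-FGF9 and HG 1 lower, to be read against 24.4%, 47.6% and 5.61% of all genes. Their median log2 fold changes were -0.72, -1.26 and -0.28. After the correction for GC content the medians were -0.29, -0.41 and -0.21. Counts by list below are to be read against the 22.7% and 42.2% of all genes called lower in HG and si-FGF9. The lists were chosen with earlier results of these data known, so that a higher share is no independent result about them. Values of single genes below are without the correction for GC content unless it is named. By list, the corrected medians in HG and si-FGF9 were -0.02 and -0.03 for the nucleators, 0.16 and -0.04 for the capping and severing genes, -0.39 and -0.39 for the GTPases and effectors, -0.09 and -0.54 for the adhesion adaptors, -0.65 and -1.09 for the MRTF and SRF list and -0.38 and -0.80 for the spectrins, septins and membrane links.

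The list of MRTF and SRF cofactors and targets had the highest share called, 7 of 13 lower in HG and 10 of 13 in si-FGF9. Of all genes 22.7% and 42.2% were called lower. ANKRD1, a stretch-responsive gene driven by YAP and MRTF, fell from 172 ± 16.7 TPM in NG to 39.7 ± 24.6 in HG (-2.27 ± 0.35, adjusted p = 0.00101) and 8.68 ± 1.14 in si-FGF9 (-4.16 ± 0.35, adjusted p = 6.26e-06). After the correction for GC content its values were -1.48 and -2.92. Among the small GTPases, their regulators and effectors, 9 of 19 fell in HG and 11 of 19 with si-FGF9, with 1 higher. RND3, which opposes RhoA, fell in HG (-2.21 ± 0.62, adjusted p = 0.0118), though its HG libraries were far apart (47.9 ± 55.1 TPM, SD, n = 3). ARHGAP29, a brake on RhoA, fell in si-FGF9 (-3.20 ± 0.32, adjusted p = 9.44e-06). It was the only gene of these lists called in HG + OE-FGF9 against HG, lower with libraries that overlapped (-1.32 ± 0.32, adjusted p = 0.024). At an adjusted p under 0.05 at any fold, 3 genes of the lists were lower there and 1 higher, against 4.71% and 4.82% of all genes. ARHGDIA, which keeps small GTPases such as RHOA in the cytosol, rose in si-FGF9 (1.02 ± 0.15, adjusted p = 0.000101).

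The Arp2/3 complex and other nucleators start new filaments. Of these 18 genes, 7 were lower in HG, and 11 were lower and 1 higher in si-FGF9. Of all genes 22.7% were lower in HG, and 42.2% were lower and 5.36% higher in si-FGF9. After the correction for GC content the median of these nucleators was -0.02 in HG and -0.03 in si-FGF9. The extremes lay within the same complex. ACTR3, its Arp3 subunit, fell in HG (-2.14 ± 0.42, adjusted p = 0.00212) and in si-FGF9 (-3.46 ± 0.42, adjusted p = 2.38e-05), while the subunit ARPC1A rose in si-FGF9 (1.10 ± 0.11, adjusted p = 8.56e-06). Of 13 capping, severing and monomer-binding genes, 4 were lower in HG, and 6 were lower and 2 higher in si-FGF9. CAPZA2, a subunit of capping protein, fell in both (-2.19 ± 0.41 and -3.16 ± 0.41, adjusted p = 0.00183 and 3.63e-05), and CAPG, a gelsolin relative that caps filaments, rose in si-FGF9 (1.37 ± 0.14, adjusted p = 9.68e-06).

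Of 20 focal adhesion adaptors, 7 fell in HG and 11 with si-FGF9, where 22.7% and 42.2% of all genes were called lower. ENAH, which speeds filament growth, fell most in HG (-2.45 ± 0.33, adjusted p = 0.000639), and PALLD (palladin), an actin bundler, in si-FGF9 (-3.01 ± 0.38, adjusted p = 2.97e-05). Of 16 spectrin, septin and membrane-link genes, 7 fell in HG and 11 with si-FGF9. SEPTIN7, a core septin, fell most in both (-1.92 ± 0.44, adjusted p = 0.00436, and -3.01 ± 0.44, adjusted p = 7.8e-05).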

How the data were processed

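RNA of HK2 cells gave 12 libraries (4 groups of 3), for which the authors deposited a TPM value for each of 62703 Ensembl gene identifiers, per library and in a table of the series, with identical values. The unit was read from the values. TPM keep no depth, so that counting error could not be given. The submitters' processing notes name Bowtie 0.12.2 and mm8, a mouse genome build, without a role. The quantification tool, the human build and the strand setting are not given in the sources used here.

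The 14639 genes that reached 1 TPM in 3 or more libraries were fitted as log2(TPM + 1) across all 12 libraries with limma 3.58.1 in R 4.3.3 (empirical Bayes with a trend), and 5 comparisons were taken from that fit. Calls needed an absolute log2 fold change of 1 or more together with an unadjusted p under 0.01. Adjusted p-values are Benjamini-Hochberg values over all genes tested. Fold changes are on the log2(TPM + 1) scale, which understates those of low genes. Coordinates, lengths and GC contents are from GENCODE (GRCh38), and promoters from RefSeq (GRCh38.p14). The GC correction took from each library a spline of 5 degrees of freedom over GC content. The fit was tested on simulated data.

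The members and lists were chosen with earlier results of these data known, and single genes outside the set were named as the largest change of their list in each direction. Values in every library are given for the actins, for the members with the largest changes and for those named at the outset, and the rest by means and counts. Genes that share sequence with members were named after a search for shared stretches of 31 bases. Alternatives comprised other pseudocounts, filters, scalings, GC corrections, thresholds and sample sets, and leaving out each library in turn.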

Additional observations from a re-analysis of the deposited data

How the results depend on the processing

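Of the values of single members under the alternatives, 2549 kept their side of the criteria, 77 were no longer called, 19 were newly called and 1 was newly called with its sign changed. That one was MRTFA in si-FGF9 against NG, at 1.04 after quantile normalization, against -0.01 as reported and 0.90, not called, after median-of-ratios scaling. Signs of values that were not called changed more often, under median-of-ratios scaling for 10, 11 and 7 members in the 3 comparisons of the study and with the GC correction for 6, 5 and 0. The number of members called moved by over 1.5 times as follows. Between HG and NG, 10 became 4 with the correction for GC content, against 6.84% of all genes. With a replicate block added it was also 4, against 6.82%. With GC content and transcript length corrected, 2 were left (RHOB, lower, and MYL9, higher), against 5.28%. Between si-FGF9 and NG, 19 became 10 with GC content and length corrected, against 19.9% of all genes. Between HG + OE-FGF9 and HG, 2 became 1 with median-of-ratios scaling (5.42% of all genes called) and with the GC correction (5.21%). It was also 1 with that correction and a replicate block (5.12%) and with GC content and length corrected (4.88%). With only the 6 libraries of the comparison (4.26%) or the closest pairs of libraries averaged (3.44%) it was 1 again. Between si-FGF9 and HG, 8 became 2 with median-of-ratios scaling, against 8.01% of all genes. It became 4 with each of the 3 GC corrections, against 5.86% (GC content alone), 5.62% (with a replicate block) and 5.45% (with length). Between HG + OE-FGF9 and NG, 11 became 7 with GC content and length corrected, against 18.8% of all genes. The cause was not tested. Leaving out 1 library at a time gave 8 to 12, 17 to 19, 1 to 4, 7 to 11 and 11 to 13 members called in these 5 comparisons. Of all genes, 15.3 to 32.4%, 45.7 to 48.1%, 3.75 to 11%, 7.18 to 17.5% and 35.9 to 45% were called there. The correction of length and the averaging of close pairs were added after seeing the data. Replicate numbers did not pair the libraries. The deviations of libraries of the same number correlated at -0.16 to 0.09 for HG and NG and -0.04 to 0.17 for si-FGF9 and NG. They correlated at -0.14 to 0.25 for HG + OE-FGF9 and HG, -0.44 to -0.07 for si-FGF9 and HG and -0.15 to -0.03 for HG + OE-FGF9 and NG. A replicate block gave 10, 19, 2, 8 and 11 members called, against 24%, 47.3%, 5.42%, 10.5% and 39.4% of all genes. Over all genes, the 3570 called between HG and NG became 970 with the GC correction, and the 6966 between si-FGF9 and NG became 3452. TPM give no depth, so that low genes such as ACTA2 and the ROCK kinases carry an unknown counting error.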
